A study of Danio rerio with 6 samples.

Results

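The alternative pathway of complement was followed here through 10 gene symbols, cfb, bfb, cfd, cfi, cfh and cfhl1 to cfhl5, which were matched by name in the table of all genes. Of the 10 symbols, 9 were found among the 31901 genes of the table and 8 had a read in any library. The 7 whose normalized counts averaged 5 or more over the 6 libraries were tested. Complement is a cascade of plasma proteins that marks microbes and debris for removal. In the alternative pathway, factor B binds to an activated fragment of C3 and is cut by the protease factor D, which leaves an enzyme (the C3 convertase) that cuts more C3 in a self-amplifying loop. Factor H dismantles this enzyme and helps the protease factor I to destroy the C3 fragment, so that host surfaces are spared. In mammals the liver makes most plasma factor B, factor H and factor I, whereas fat tissue makes most factor D.

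The libraries came from 3 pools of wild-type larvae and 3 pools of dscaml1−/− siblings from heterozygous parents, in a mixed AB and TL background, at 3.5 to 4 dpf and with no treatment. The mutant carries the vt1 allele, a small deletion in dscaml1 that shifts the reading frame. Each pool held 6 to 11 sexually undifferentiated larvae, so a value is an average over larvae. The labels name whole animals, whereas the methods describe RNA from the anterior part of each larva, the posterior part being kept for genotyping.

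Depth ranged from 21863982 to 23516860 reads in wild type and from 18725190 to 20476688 in mutants. The transcript of dscaml1 itself had 333 to 395 normalized counts in wild type and 336 to 399.6 in mutants, and checks no label because the deletion need not lower it. Replicate 2 of both genotypes lay away from the other 4 libraries on principal component 1, with 70.9% of the variance. The fit therefore held a term for replicate 2 beside genotype, and the labels name no batch or day behind it. Of 16 hepatocyte plasma protein symbols, 15 had an entry. The entries for markers of hepatocytes, enterocytes, macrophages, neutrophils and neurons were all detected, apart from the neuron gene stmn1b, which was listed at 0. In such bulk samples fewer cells of a type and less RNA per cell cannot be told apart.

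Between genotypes, cfhl2, a paralog of factor H, fell about 3-fold in the mutants and was the 1 gene of the 7 tested that passed an adjusted p of 0.05 with limma. Over all 21302 genes tested, 0.0751% were called lower by this rule and 0.0235% higher, and 0 of the 7 were called higher. The factor B genes cfb and bfb, factor H and cfhl1 had mutant means of 0.383 to 0.528 of the wild-type means without passing the adjusted threshold. Values for factor D (cfd) and for cfhl4 lay close together in the genotypes. The median log2 fold change of the 7 genes was −0.99, against 0.01 over all genes tested.

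**Figure D1:**
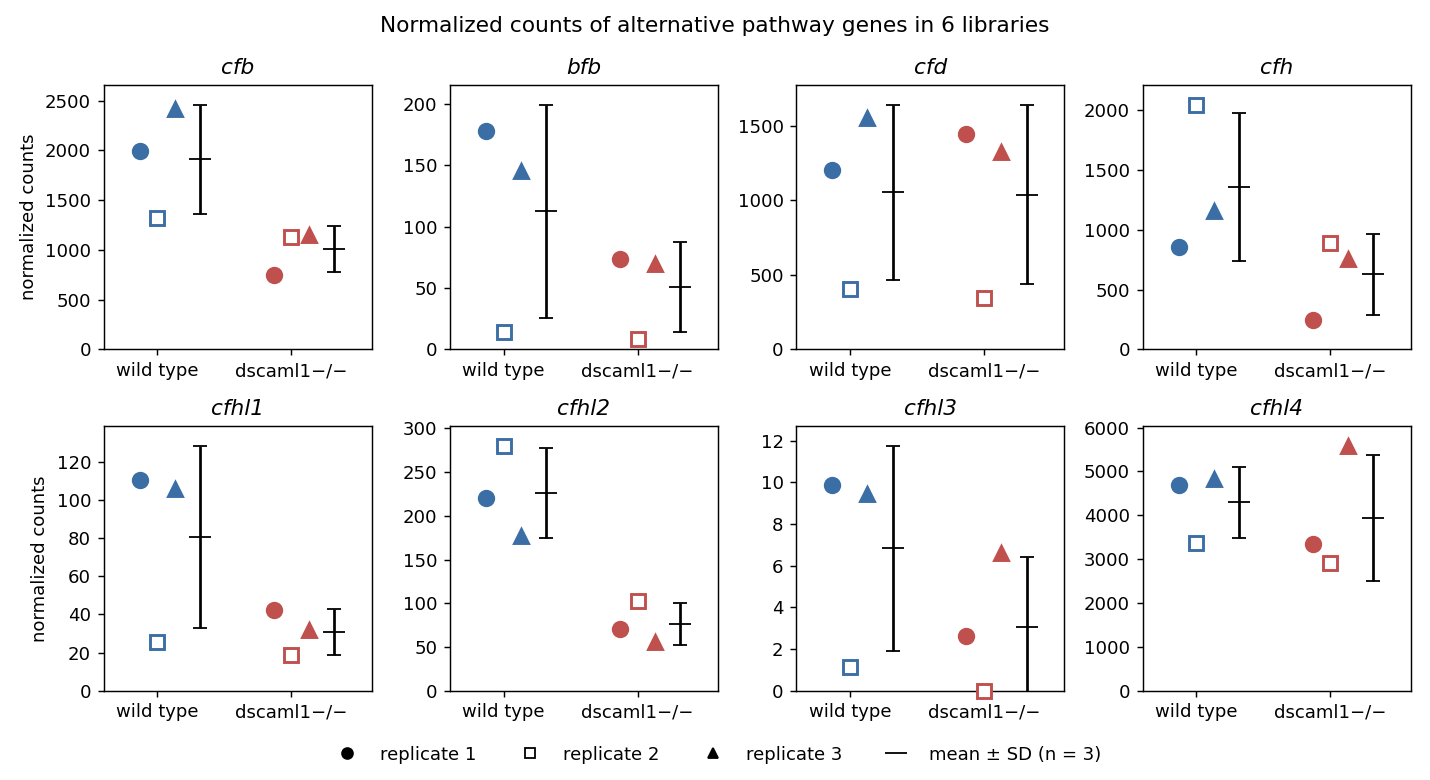
Normalized counts (y axis, each panel with its own scale from 0) of 8 alternative pathway genes in 3 wild-type and 3 dscaml1−/− pools, with a marker shape for each replicate number (open squares, replicate 2) and the mean ± SD beside each group (cut off at 0 for cfhl3). Every mutant pool lies below every wild-type pool for cfb and cfhl2, as for 4.55% of all genes tested. For cfd and bfb the replicate 2 pools of both genotypes lie far below the others.

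Factor B is encoded by cfb and bfb, which lie side by side on chromosome 21 of GRCz11 with a gap of 6.47 kb. For cfb (ENSDARG00000055278, from 27416284 to 27431397), wild-type pools 1, 2 and 3 gave 1995, 1324 and 2413 normalized counts and mutant pools 1, 2 and 3 gave 743, 1132 and 1153. Every mutant pool lay below every wild-type pool, as for 4.55% of all genes tested, although the replicate 2 pools came close to each other. The mean was 1911 ± 549.7 in the wild-type pools against 1010 ± 231 in the mutant pools (SD, n = 3). With limma the log2 fold change came to −0.90 with a standard error of 0.24 (adjusted p = 0.187). In pairs of equal replicate number the log2 difference was −1.42, −0.23 and −1.06.

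For bfb (ENSDARG00000005616, from 27437867 to 27443995), the wild-type pools in the same order gave 178, 13.8 and 145 normalized counts and the mutant pools 74.1, 8.30 and 69.9. The groups overlapped, because the replicate 2 pools of both genotypes were the lowest libraries by a wide margin, with 24 and 13 reads. Within each pair of equal replicate number the mutant was lower, by log2 values of −1.26, −0.67 and −1.05. Fitted by limma, the log2 fold change of bfb was −0.99 with a standard error of 0.20 (adjusted p = 0.127).

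The ratio of cfb to bfb counts, which is not scaled for transcript length, ran from 10.0 to 16.6 in replicates 1 and 3 of both genotypes and was 95.7 and 136 in the replicate 2 pools. It did not separate the genotypes (exact two-sided permutation test, p = 1). The ratio tests here and below were chosen after the values were seen, and over the 7 ratios computed no adjusted p was below 0.7. An exact test of 3 against 3 pools cannot go below p = 0.1, so none of these ratios could have passed 0.05. These exact tests take no account of the pairs or of replicate 2.
The next gene of the locus, cfbl (ENSDARG00000090730, from 27448856 to 27461206), is not among the 10. It averaged 62.3 ± 18.6 normalized counts over the wild-type pools and 58.5 ± 20.7 over the mutant pools (SD, n = 3). limma put its log2 fold change at −0.10 with a standard error of 0.32 (adjusted p = 0.921), the mutant being higher in the pair of replicate 2 and lower in the other two. Without replicate 2 its estimate was −0.62 (limma, adjusted p = 0.363). Reads shared by such close paralogs could have been split or dropped in counting, so the counts of single paralogs are uncertain.

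Factor D, the protease that activates factor B, is encoded by cfd (ENSDARG00000039579, chromosome 13 from 13681681 to 13684334). Wild-type pools 1, 2 and 3 held 1205, 404 and 1552 normalized counts of it, and mutant pools 1, 2 and 3 held 1445, 348 and 1322. Both replicate 2 pools were low and the genotypes overlapped throughout. Its log2 fold change was −0.06 with a 95% interval of −0.36 to 0.24 (limma, adjusted p = 0.874). The ratio of cfd to cfb was 0.604, 0.305 and 0.643 in wild type and 1.94, 0.307 and 1.15 in mutants, so that the replicate 2 pools of both genotypes were nearly equal (exact two-sided permutation test, p = 0.4).
The protease factor I could not be followed, since the table has 0 genes under the symbol cfi. One entry is described as complement factor I under the name CABZ01073265.1 and has 0 reads in every library.

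**Figure D2:**
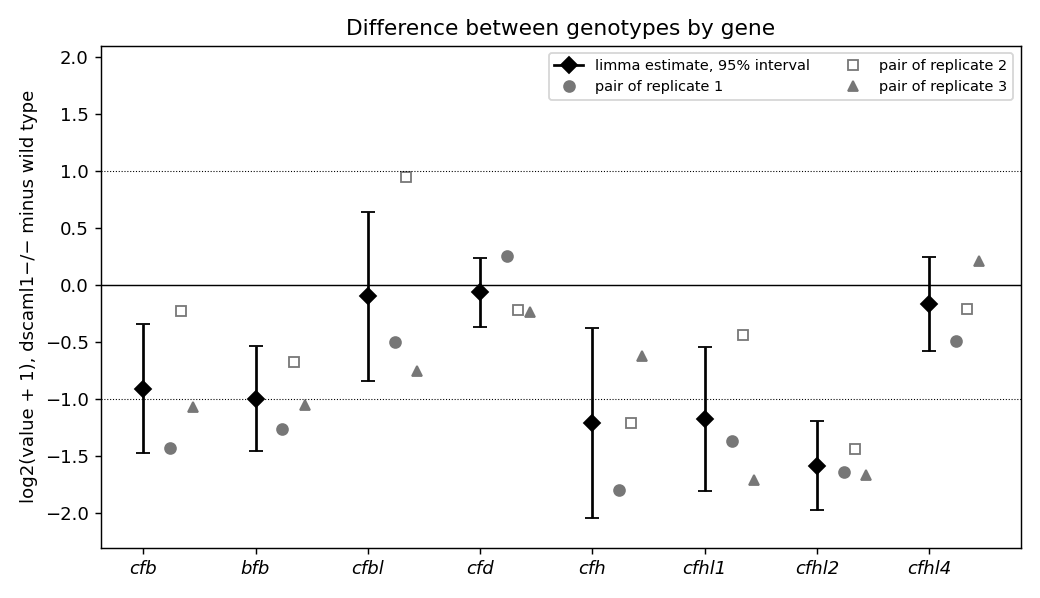
Log2(normalized count + 1) of dscaml1−/− minus wild type (y axis) for 7 alternative pathway genes and the neighbouring cfbl. Diamonds and bars are the limma estimate with its 95% interval, grey symbols the difference within each pair of equal replicate number, and dotted lines mark 2-fold. For cfb, bfb, cfh, cfhl1 and cfhl2 all pairs lie below 0, and for cfd, cfhl4 and cfbl they lie on both sides.

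The 6 genes of the factor H family lie within 183 kb of chromosome 22. Factor H itself, cfh (ENSDARG00000100442, from 23641801 to 23668468), reached 857.5, 2044 and 1158 normalized counts in wild-type pools 1, 2 and 3, against 247, 885 and 752 in mutant pools 1, 2 and 3. Here the replicate 2 pools were the highest of their genotype, and the mutant replicate 2 pool just exceeded the lowest wild-type pool. For cfh limma estimated a log2 fold change of −1.21 (adjusted p = 0.217). Its standard error of 0.36 was the largest standard error among the 7 genes. The pairs differed by −1.79, −1.21 and −0.62 on the log2 scale. Without mutant replicate 1, the lowest pool, the estimate was −0.75, and without mutant replicate 3 it was −1.66.

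cfhl2 (ENSDARG00000103760, from 23734001 to 23748284) stood at 220, 280 and 177 normalized counts in wild-type pools 1, 2 and 3, and at 70.2, 103 and 55.2 in mutant pools 1, 2 and 3. The groups were well apart, the highest mutant pool lying at 103 and the lowest wild-type pool at 177. It fell by 1.58 on the log2 scale (standard error 0.17, 95% interval −1.97 to −1.19, adjusted p = 0.0361 from limma), and the 3 pairs spanned only −1.67 to −1.44. The counts behind these values were 300 to 486 reads per wild-type library and 75 to 161 per mutant library. The call did not survive the loss of any library. The adjusted p from limma was 0.0963, 0.168 and 0.106 without wild-type replicates 1, 2 and 3, and 0.0550, 0.172 and 0.0716 without mutant replicates 1, 2 and 3, while the log2 fold change stayed between −1.66 and −1.46. The call was also lost without the replicate 2 term (limma, adjusted p = 0.9999), a fit that called 0 of all genes in either direction. The log2 fold change is by construction the same there, −1.58, with an unadjusted limma p of 0.0013. edgeR gave an adjusted p of 0.0400 with the term.

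cfhl1 (ENSDARG00000105212, from 23693195 to 23706771), the neighbour between cfh and cfhl2, gave 110, 25.4 and 106 normalized counts in wild-type pools 1, 2 and 3, against 42.2, 18.5 and 31.6 in mutant pools 1, 2 and 3. The pools of replicate 2 were the lowest of each genotype, and wild-type replicate 2 lay below 2 of the 3 mutant pools. Over these pools limma gave −1.17 with a standard error of 0.27 as the log2 fold change (adjusted p = 0.155), and the pairs gave −1.37, −0.43 and −1.71. The ratio of cfhl2 to cfhl1 was 1.66 to 1.99 in replicates 1 and 3 of both genotypes, against 11.0 and 5.55 in the wild-type and mutant pools of replicate 2.

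cfhl4 (ENSDARG00000102456, from 23598036 to 23625372), at the other end of the family, gave normalized counts of 4696, 3359 and 4824 in wild-type pools 1, 2 and 3 and 3352, 2904 and 5585 in mutant pools 1, 2 and 3. The mutants held both the lowest and the highest pool. Its log2 fold change was −0.16 with a 95% interval of −0.57 to 0.25 (limma, adjusted p = 0.731). The ratio of cfhl4 to cfhl2 was 21.3, 11.99 and 27.2 in wild type and 47.8, 28.2 and 101 in mutants, so that every mutant pool lay above every wild-type pool (exact two-sided permutation test, p = 0.1, the smallest that 3 against 3 pools allow, and 0.7 adjusted over the 7 ratios).
cfhl3 (ENSDARG00000104205, from 23767557 to 23781213) was at the limit of detection with 17, 2 and 16 reads in the wild-type libraries and 4, 0 and 9 in the mutant libraries. Its mean was below the minimum for a test. For the library with 0 reads, 3 reads or 1.92 normalized counts could have been missed by counting error.
cfhl5 (ENSDARG00000105052, from 23598093 to 23612854) had 0 reads in every library, which allows up to 1.73 to 2.21 normalized counts per library. On GRCz11 it lies wholly inside cfhl4, whereas the 2 genes share 0 bases in the RefSeq annotation of GRCz12tu. The libraries were strand-specific, but neither the strand of the 2 genes nor the strand setting of the counting is given in these sources. Whether reads in the overlap were dropped or assigned to 1 of the genes was therefore not settled, and the 0 of cfhl5 and the level of cfhl4 are uncertain.

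**Figure D3:**
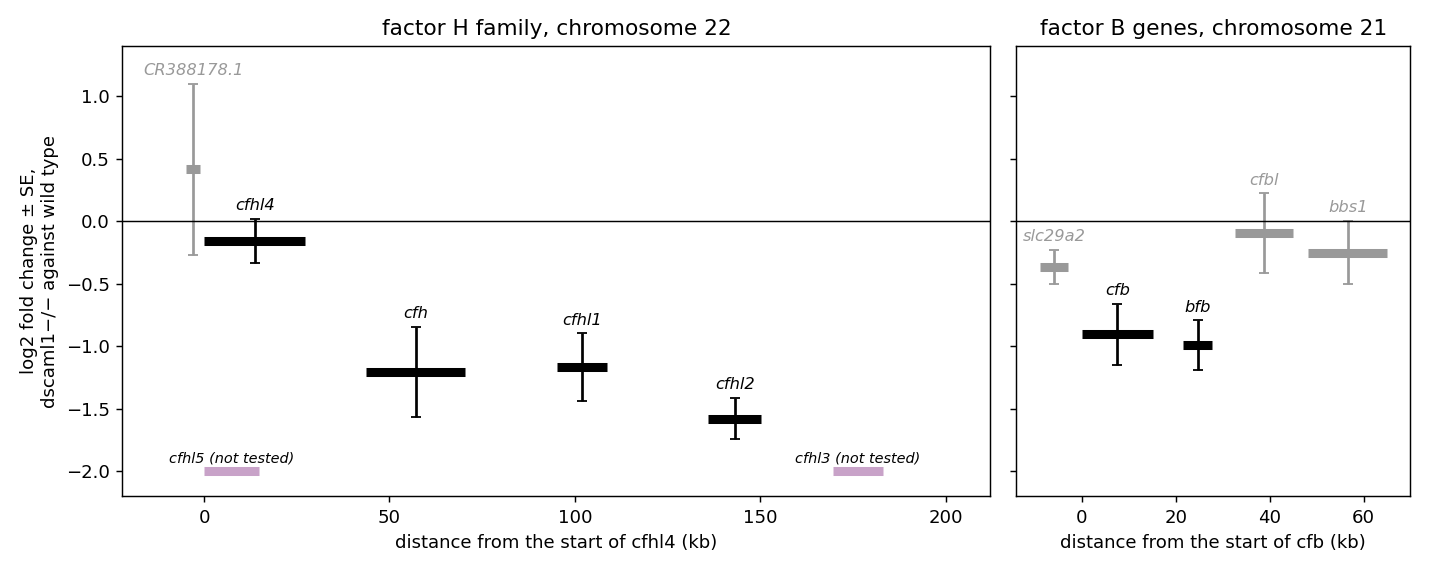
Log2 fold change of dscaml1−/− against wild type (y axis, limma estimate ± SE) for each tested gene along the factor H family and the factor B genes, with the distance from the start of cfhl4 or cfb on the x axis and each gene drawn to scale. Genes that are not among the 10 are grey, and cfhl5 and cfhl3 are drawn at the bottom without a value. The estimates are −0.16 at cfhl4 and −1.21, −1.17 and −1.58 at cfh, cfhl1 and cfhl2.

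At the edges of both clusters the neighbouring genes that could be tested were not called with limma after adjustment, and neither were cfb and bfb. slc29a2, a nucleoside transporter gene that precedes cfb, had a log2 fold change of −0.37 (adjusted p = 0.297 from limma). Its unadjusted limma p of 0.0279 was under 0.05. For bbs1, a gene of the cilium that follows cfbl, the log2 fold change was −0.25 (adjusted p = 0.705 from limma). On chromosome 22, CR388178.1 before cfhl4 had at most 19 reads in a library and a log2 fold change of 0.41 with a standard error of 0.68 (limma, adjusted p = 0.834). Between cfhl2 and cfhl3 lie BX005398.1 and BX005398.2, which had at most 1 and 0 reads in a library. Beyond cfhl3, AL935303.1 had 0 reads in every library and was not tested.

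Counted by other rules, the 7 genes gave the following. At an unadjusted limma p under 0.05, 5 of the 7 were lower (cfb, bfb, cfh, cfhl1 and cfhl2), against 7.9% of all genes tested. These 5 were also lower in all 3 pairs, as were 20.6% of all genes. In 2 of the 7, cfb and cfhl2, every mutant pool lay below every wild-type pool, against 4.55% of all genes. With the replicate number as a block limma called 1 of the 7, again cfhl2 (adjusted p = 0.0274), and 0.174% of all genes. The study applied a 2-fold change and an adjusted p under 0.01 to the likelihood ratio test of DESeq2. With limma, 0 of the 7 and 0% of all genes were lower at these thresholds.
DESeq2 on the recovered reads, with the replicate 2 term, called 4 of the 7 lower at an adjusted p under 0.05 against 2.18% of genes, namely cfhl2 (2.28e-10), bfb (0.00358), cfhl1 (0.0129) and cfb (0.0190). Of these, cfhl2 and bfb also met 0.01 with a 2-fold change, as did 0.435% of genes. The adjusted p of cfh from DESeq2 was 0.322 with this term and 3.78e-06 with the replicate number as a block. With no replicate 2 term DESeq2 kept cfhl2 alone (adjusted p = 0.0137), and the other 4 had adjusted p of 0.656 for cfb and 1 for the rest.

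The replicate 2 pools differed from the others in opposite directions among these genes, with the same sign in both genotypes for all of the 7 but cfb. These values are given without a test, since the term was chosen from the data. bfb was 9.26-fold lower in replicate 2 than in replicates 1 and 3, cfd 3.66-fold and cfhl1 2.82-fold. cfh was 2.05-fold higher and cfhl2 1.52-fold higher, and cfhl4 was 1.45-fold lower. Of the 7 genes 3 were at least 2-fold lower and 1 at least 2-fold higher in replicate 2, against 10.8% and 3.76% of all genes. For cfh the log2 difference was 1.04 within each genotype, and for cfd it was −1.76 in wild type and −1.99 in mutants. cfb differed in sign between the genotypes, at −0.73 in wild type and 0.29 in mutants. The same pools had low summed counts of hepatocyte plasma protein genes (126945 and 184496, against 239632 to 324440 in the other 4 libraries) and of enterocyte genes (1160 and 2141 against 9473 to 28417). Summed counts of neuron genes were higher in these pools (8168 and 8695 against 5940 to 7430). By gene, the log2 difference of replicate 2 was 0.85 for elavl3 and 0.81 for gap43 but −0.13 for snap25a. The part of cell makeup in these differences was not tested.

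**Figure D4:**
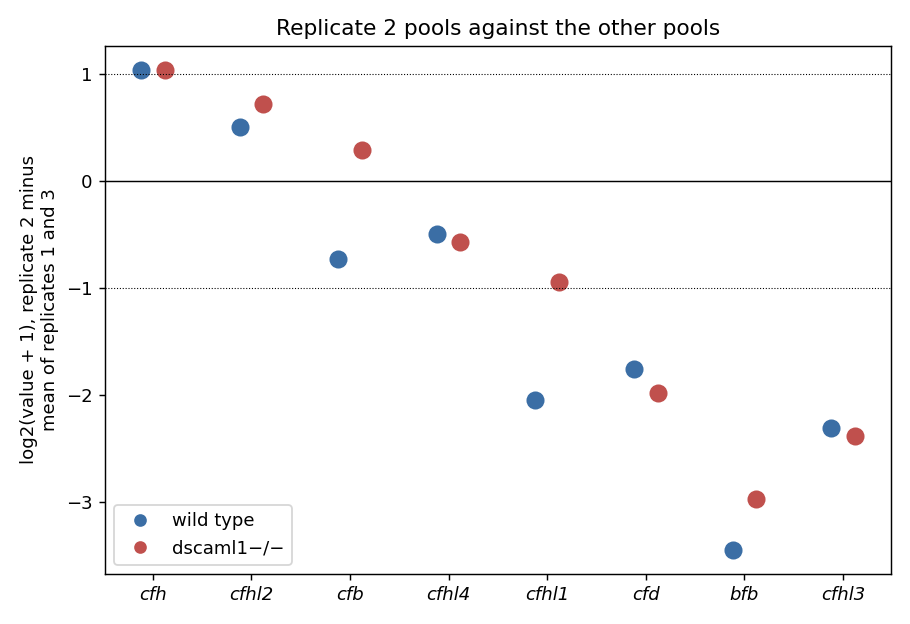
Log2(normalized count + 1) of the replicate 2 pool minus the mean of replicates 1 and 3 of the same genotype (y axis) for 8 alternative pathway genes, with wild type in blue and dscaml1−/− in red and dotted lines at 2-fold. cfh lies at 1.04 in both genotypes, whereas bfb lies at −3.45 and −2.97.

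Some liver genes were also lower in the mutants. Of the 15 hepatocyte plasma protein genes tested, 12 were lower at an unadjusted limma p under 0.05, against 7.9% of all genes tested. Of the 15, 14 had an estimate below 0, with a median log2 fold change of −0.63, against 0.01 over all genes tested. With limma 3 were called lower and 0 higher, against 0.0751% and 0.0235% of all genes tested. The 3 were tfa (transferrin), cp (ceruloplasmin) and serpina1, which fell by 1.16, 1.14 and 0.83 on the log2 scale (adjusted p of 0.0226, 0.0226 and 0.0390 from limma). The summed counts of the list ran from 184496 to 324440 in wild type and from 126945 to 276512 in mutants. Of 8 hepatocyte transcription factors 0 were called with limma, 4 were lower at an unadjusted p under 0.05 and the median was −0.47.
Set against the hepatocyte sum of the same library, cfhl2 had 0.679, 1.52 and 0.562 counts per 1000 hepatocyte counts in wild-type pools 1, 2 and 3, against 0.293, 0.810 and 0.200 in mutant pools 1, 2 and 3. Each mutant lay below the wild type of the same number, but the groups overlapped (mean log2 difference −1.20, exact two-sided permutation test, p = 0.3). For cfb the same measure was 6.15, 7.17 and 7.64 in wild type and 3.10, 8.92 and 4.17 in mutants, with the highest value in a mutant (−0.52, exact two-sided permutation test, p = 0.4). On this measure bfb and cfh were, like cfhl2, lower in the mutant of all 3 pairs, cfb and cfhl1 in 2 and cfd and cfhl4 in 1. Over the 7 genes the exact p, which takes no account of the pairs or of replicate 2, ranged from 0.3 to 0.6. With 3 against 3 pools this exact p can go no lower than 0.1. The sum is taken from pooled larvae, and how much of it came from hepatocytes was not measured, so it is no level per hepatocyte. One gene, apoa2, an apolipoprotein gene, made up 30.3% to 51.4% of the hepatocyte sum. Without it the mean log2 difference was −1.04 for cfhl2, −0.35 for cfb, 0.49 for cfd and 0.39 for cfhl4, bfb was lower in 2 pairs, and cfd and cfhl4 were lower in 0. The part of liver size or maturity in the genotype difference was not tested.

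The other arms of complement had the following values, to be set against 7.9% of all genes tested lower at an unadjusted limma p under 0.05. Called lower after adjustment were 0.0751% of all genes tested. Of 7 C3 paralogs tested 0 were called with limma, 6 were lower at an unadjusted p under 0.05 and the median log2 fold change was −0.995. c3a.1, a C3 gene, averaged 5568 ± 2006 normalized counts over the wild-type pools and 2524 ± 726 over the mutant pools (SD, n = 3), and limma gave an adjusted p of 0.0874. Of 8 genes of the terminal pathway, whose products form the membrane attack complex, 1 was called (c5, log2 fold change −1.26, adjusted p = 0.0396 from limma), 7 were lower at an unadjusted p under 0.05 and the median was −1.05. Of 9 genes of the classical and lectin pathways 0 were called, 2 (masp2 and mbl2) were lower at an unadjusted p under 0.05 and the median was −0.15. Of 6 other regulators 1 was called (vtna, a vitronectin, log2 fold change −1.24, adjusted p = 0.0373 from limma) and 3 were lower at an unadjusted p under 0.05. The 2 complement receptor genes tested, itgb2 and itgam, gave 0 at either threshold.
Among 19 acute phase and inflammatory signalling genes, a group that includes inducers of factor B in mammals, limma called 0, and 0 were lower and 3 higher at an unadjusted p under 0.05, against 7.9% lower and 6.1% higher over all genes tested. The 3 were nfkbiaa, socs3a and hp, with log2 fold changes of 0.51, 0.64 and 0.34 (adjusted p of 0.152, 0.168 and 0.324 from limma). Macrophage and neutrophil markers gave 0 of 5 and 0 of 5 genes at an unadjusted limma p under 0.05. Their summed counts ran from 578 to 1016 in wild type and 592 to 854.5 in mutants for macrophages, and from 458 to 628 and 424 to 1193 for neutrophils. Of 5 enterocyte markers 4 were lower at an unadjusted p under 0.05 and 0 were called with limma. All 5 had an estimate below 0, with a median log2 fold change of −1.21, against 0.01 over all genes tested. Of 3 neuron markers 1 (snap25a) was higher at an unadjusted p under 0.05.

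Likeness of pattern was measured by the Pearson correlation of log2(normalized count + 1) over the 6 libraries among the 13420 genes averaging 100 normalized counts or more. The genes most like cfb were nrd1a, FP102018.1, mef2aa, zgc:63831 and rtn2b (0.978 to 0.995), and those most like cfh were meis1a, plcg1, zdhhc8b, ccdc85ca and sympk (0.984 to 0.991). Picked as the highest among 13420 genes over only 6 libraries, such values can arise by selection alone, and shared regulation was not tested. The correlation ignores the size of change, and the log2 fold changes of these 10 genes were only −0.36 to −0.10. Within the set, cfh correlated with cfhl2 at 0.720, with cfb at 0.621, with its neighbour cfhl4 at 0.079 and with cfd at −0.51.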

How the data were processed

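The deposited signal values were gene counts scaled by the authors with 1 size factor for each library. The submitters' processing notes name TopHat2, HISAT2, HTSeq and GRCz11, with no versions given in these sources. Columns with the authors' own fold changes and p-values were not used, nor were 3 shorter deposited tables that repeat rows. Divided by the value of 1 read, 100% of the values came out whole (tolerance 0.001 reads), and 0 sample columns were left unmapped. Libraries of 1 genotype all differed beyond sampling noise (chi-square over its degrees of freedom, 21.1 to 134.5).

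limma (version 3.58.1, R 4.3.3) was fitted with a mean-variance trend to log2(value + 1) over genes with a mean of at least 5, with genotype and a replicate 2 term, and p-values were adjusted over all genes (Benjamini-Hochberg). Fold changes on this scale understate the change of low genes. Alternatives were edgeR 4.0.16 and DESeq2 1.42.0 (likelihood ratio test) on the recovered reads, other pseudocounts (0.5 and 4), filters and scalings, a replicate block, and leaving out libraries. The scripts were tested on simulated data in which only genes of higher counts were changed. That checks the code and not the calls made here. Equal replicate numbers deviated together across genotypes (correlations of 0.651, 0.856 and 0.699), so the numbers were taken to pair the pools. Replicates 1 and 3 were less clearly told apart, since wild-type replicate 3 also correlated with mutant replicate 1 (0.5) and wild-type replicate 1 with mutant replicate 3 (0.346). The deviations were taken from the mean of each genotype. The shared shift of replicate 2 therefore makes replicates 1 and 3 correlate in part, whichever way they pair. Intervals and floors cover counting or pool error only. The methods call the pools biological replicates and name no clutch, so that p-values reflect only how these pools vary. Python 3.11.15 was used for other steps.

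The members, lists and tests were chosen with earlier results of these data known. Text names all members, up to 4 genes of each list by lowest limma p, genes beside the members, and the 5 genes most like cfb and cfh. No sequence of the members was used here.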

Additional observations from a re-analysis of the deposited data

How the results depend on the processing

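With limma, 1 of the alternative pathway genes, 16 of all genes lower and 5 of all genes higher at an adjusted p under 0.05 became 0, 0 and 0 without the replicate 2 term, and 0, 0 and 0 with replicate 2 of both genotypes left out. With the replicate number as a block they were 1, 37 and 10, and the gene called was again cfhl2. DESeq2 on the recovered reads gave 4, 401 and 189 with the replicate 2 term, and 5, 444 and 214 with the replicate block, which added cfh (adjusted p = 3.78e-06 against 0.322). With 1 library left out in turn, limma called 0 to 0 alternative pathway genes, 0 to 11 genes lower and 0 to 1 genes higher. The causes were not tested. The log2 fold changes of cfb, bfb, cfh, cfhl1 and cfhl2 ranged from −1.66 to −0.63 over the alternatives, several of which give the same estimate by construction. The estimates of cfd and cfhl4, which were called in no fit, changed sign: cfd was 0.015 without replicate 2 of both genotypes or of either one, and 0.021 without wild-type replicate 3 (range −0.19 to 0.021 with 1 library left out), and cfhl4 was 0.042 without mutant replicate 1 (range −0.38 to 0.042). The neighbour cfbl ranged from −0.62 to 0.12 with 1 library left out. Leaving out 1 pool of replicate 2 lets the term absorb the other, which is why both give the fit without replicate 2. Read counts were low for cfhl3 (0 to 17 reads) and for bfb in replicate 2 (13 and 24 reads), which limits the precision of these values.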
